A study of Mus musculus with 2 samples.

Results

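The genes described here are 9 mouse genes that handle arginine, nitric oxide and itaconate: Ass1, Slc7a2, Arg1, Arg2, Nos2, Nos3, Ddah1, Ddah2 and Acod1. They were chosen by name from a list of enzymes and a transporter, with earlier results of these data known. All 9 were found among the 31053 features of both count matrices. The study sorted CD45+ cells, CD45 being the surface protein that marks white blood cells, out of digested hearts and profiled them by droplet-based single-cell RNA sequencing. The mice of both groups were C57BL/6, wild type and 10 weeks of age. The sham group is the control operation, and the TAC group had transverse aortic constriction, a narrowing of the aorta that loads the left ventricle with pressure. Each group is described as 6 mice and is 1 library. The labels tie no cell to a mouse or to the GEM well (the droplet run) it came from, and give no time after surgery or sex.

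Arginine is a branch point of immune metabolism. Arginases (Arg1 in the cytosol, Arg2 in mitochondria) split it into urea and ornithine, the start of polyamine and proline synthesis, whereas nitric oxide synthases (inducible Nos2, endothelial Nos3) oxidise it to citrulline and nitric oxide. Ass1 starts the return of citrulline to arginine, Slc7a2 carries arginine into cells, and Ddah1 and Ddah2 belong to the family that breaks down asymmetric dimethylarginine, an inhibitor of nitric oxide synthases. Acod1 (also called Irg1) makes itaconate from the mitochondrial intermediate cis-aconitate and is known as a gene that inflammatory signals switch on in myeloid cells.

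The 9 genes lie on 9 chromosomes (mouse build GRCm38, GENCODE vM21 annotation), and counts are given per gene, not per transcript. Ass1 spans chr2:31470207-31520672 and Slc7a2 chr8:40862396-40922308, both on the plus strand. Arg1 spans chr10:24915221-24927484 on the minus strand and Arg2 chr12:79130777-79156301 on the plus strand. Nos2 spans chr11:78920787-78960254 and Nos3 chr5:24364810-24384474, both on the plus strand. Ddah1 spans chr3:145758675-145894277, Ddah2 chr17:35059035-35062095 and Acod1 chr14:103046977-103056573, all on the plus strand. Exons of Arg2 overlap Vti1b and Gm48780, exons of Nos3 overlap Atg9b and Gm15587, and an exon of Slc7a2 overlaps Gm26584, in each case on the opposite strand. How the counting treated strand is not stated by the labels or headers, so reads of those pairs may not be told apart.

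Promoter sequences from RefSeq (GRCm38.p6) were matched for 4 of the 9 genes: Ass1, Ddah1, Ddah2 and Acod1. The part upstream of the annotated gene start is shown for Acod1 and Ass1, the members called higher in the most cell classes, and for Ddah2, the member called lower in the most. Regions run 5′ to 3′ on the plus strand, chr14:103046762-103046976 for Acod1, chr2:31470020-31470206 for Ass1 and chr17:35058785-35059034 for Ddah2. Capitals mark matches to 1 of 4 motifs searched on both strands.
Acod1: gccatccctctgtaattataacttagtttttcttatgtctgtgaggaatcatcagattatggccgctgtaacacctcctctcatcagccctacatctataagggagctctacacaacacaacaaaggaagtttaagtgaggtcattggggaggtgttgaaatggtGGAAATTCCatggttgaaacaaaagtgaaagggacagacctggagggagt
Ass1: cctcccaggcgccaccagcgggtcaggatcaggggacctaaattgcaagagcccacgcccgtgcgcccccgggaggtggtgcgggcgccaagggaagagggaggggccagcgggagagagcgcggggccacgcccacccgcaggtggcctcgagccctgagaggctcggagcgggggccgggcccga
Ddah2: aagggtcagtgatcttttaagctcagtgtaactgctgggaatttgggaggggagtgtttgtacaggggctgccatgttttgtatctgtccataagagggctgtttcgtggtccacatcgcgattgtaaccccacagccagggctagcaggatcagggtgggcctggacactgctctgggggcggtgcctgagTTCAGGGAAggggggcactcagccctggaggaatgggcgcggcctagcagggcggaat
The capitals in Acod1 are GGAAATTCC, a match to GGANNNTCC (a kappa-B-like pattern) that begins 50 bases before the gene start, and 8.62% of the 32851 promoters in the table hold that pattern. The capitals in Ddah2 are TTCAGGGAA, a match to TTCNNNGAA (the GAS pattern) that begins 58 bases before the gene start and is present in 8.30% of promoters. The other patterns were GAAANNGAA (the ISRE core, 8.56% of promoters) and TGANTCA (the AP-1 pattern, 7.81%). The windows of Ass1 and Ddah1 held none of these letters.

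After removal of barcodes with fewer than 300 genes or more than 10% mitochondrial UMIs (unique molecular identifiers, the counted molecules), 4169 of 11941 sham barcodes and 5601 of 7975 TAC barcodes were kept. The kept cells held 50738794 and 90373295 UMIs, with medians of 9536 and 13892 per cell and median mitochondrial shares of 8.02% and 4.42%, so the libraries differ in depth and in the share of barcodes lost. Between the libraries 35 barcodes were shared, 7 of them among kept cells. Cells were clustered without the 9 genes and the clusters named from marker genes, so that "macrophages", for example, means macrophage-like cells. The sort was for CD45+ cells, yet endothelial-like, fibroblast-like, mural-like and cardiomyocyte-led clusters were present. C1qa, C1qb and C1qc, defining macrophage genes, were counted in every class: their median was 168.7 and 202 per 10000 UMIs in sham and TAC macrophages, 112 and 114 in T cells, 128 and 133 in B cells, and 1.07 and 2.003 in fibroblasts. With 1 library per group there is no test between groups. Levels are UMIs of a gene scaled to the total of its class and library (CPM), intervals are exact 95% intervals, both they and the limits set by a count of 0 cover counting error only, and a gene is called higher or lower when its TAC to sham ratio is at least 1.5-fold with at least 20 UMIs over both libraries. Levels of different genes are not compared with each other.

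Of 63 pairs of a gene and a class, 35 had at least 20 UMIs, and of these 21 were called higher in TAC, 7 lower and 7 fell between. In macrophages (2686 sham and 2701 TAC cells), the class with the most molecules, 8 of the 9 genes could be judged: Acod1, Ass1, Arg1 and Arg2 were higher, and Ddah2, Ddah1 and Nos3 lower. Over all 12755 genes judged in macrophages 14.9% were higher and 22.9% lower, so 4 and 3 of 8 are larger shares in both directions. In monocytes (65 and 363 cells) all 5 judged genes were higher (Acod1, Ass1, Arg2, Nos2 and Nos3) and none lower, beside 21.7% and 17.9% of all genes. In fibroblasts (212 and 248 cells) 3 of 5 were higher (Ddah1, Ass1, Acod1) and none lower, beside 10.2% and 19%.

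Endothelial cells (113 and 408) had 3 of 6 judged genes higher (Acod1, Ass1, Ddah1) and 1 lower (Nos2), beside 16.7% and 15% of all genes. T cells (155 and 298) had 3 of 5 higher (Acod1, Arg2, Ass1) and 1 lower (Ddah2), beside 20.5% and 18.6%. B cells (161 and 58) had 2 of 3 higher (Ass1, Acod1) and 1 lower (Ddah2), beside 14.4% and 26%. NK cells (53 and 77) had 1 of 3 higher (Acod1) and 1 lower (Ddah2), beside 25.8% and 19.7%, and counts of 1 in 3 do not stand apart from those shares. Neutrophils had 21 sham and 1162 TAC cells and were not compared between groups. Acod1 was called higher in all 7 compared classes and Ass1 in 6, the exception being NK cells.

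**Figure D1:**
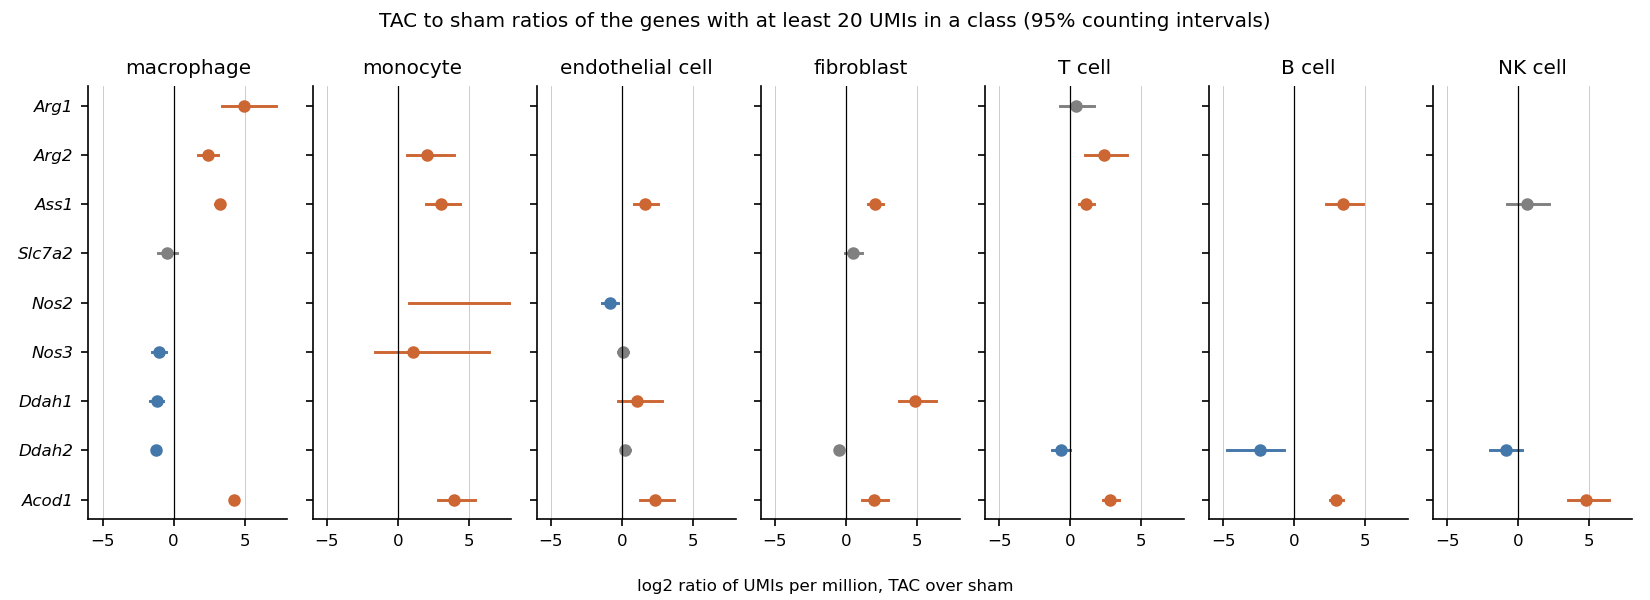
TAC to sham ratio of each gene (rows) within each of the 7 compared classes, on a log2 axis where 0 is no difference, with 95% counting intervals; orange is at least 1.5-fold higher in TAC, blue at least 1.5-fold lower, grey lies between, genes under 20 UMIs are left out, and a line with no point has 0 sham UMIs and runs past the axis. Acod1 lies to the right of 0 in all 7 classes, and Ddah1 lies far to the right in fibroblasts (29.3-fold) and to the left in macrophages (2.29-fold lower).

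Ass1, the first enzyme of citrulline recycling, was called higher in more classes than any other arginine gene of the set. It stood at 3.29 CPM in sham macrophages (86 UMIs, interval 2.63 to 4.06) and 31.0 CPM in TAC macrophages (1334 UMIs, 29.4 to 32.7). The ratio was 9.44-fold (7.59 to 11.9), and the intervals of the libraries do not overlap. In monocytes it was 9.48 CPM in sham (7 UMIs) and 79.7 CPM in TAC (601 UMIs), 8.41-fold (4.06 to 21.02), the highest TAC level of Ass1 in any compared class. In fibroblasts it went from 17.9 CPM (38 UMIs) to 73.9 CPM (320 UMIs), 4.13-fold (2.94 to 5.94), and the TAC intervals of monocytes and fibroblasts overlap.

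In endothelial cells Ass1 was 12.4 CPM in sham against 38.6 CPM in TAC (3.13-fold, 1.80 to 5.86), and in T cells 14.3 and 30.7 CPM (2.16-fold, 1.51 to 3.16). B cells had 7 and 32 UMIs, a ratio of 10.7-fold (4.62 to 28.6) that rests on few molecules. NK cells had 6 and 19 UMIs, a ratio of 1.49 (0.573 to 4.56) below the rule. TAC neutrophils had 9.54 CPM of Ass1 and TAC NK cells 10.5 CPM, the lowest levels among these 8 TAC classes, with overlapping intervals. Monocyte markers were also higher in several of these classes. The summed level of 12 such markers was 111.3 CPM in sham and 427.8 in TAC macrophages (9 of 12 called higher, 1 lower), 224.9 and 659.6 in endothelial cells (6 of 8 judged higher), 385 and 1557 in T cells (10 of 12 higher, 2 lower), 255.9 and 1067 in B cells (5 of 8 judged higher, 3 lower) and 734.9 and 1069 in fibroblasts (2 of 7 judged higher, 2 lower). None of the 12 was at 0 in macrophages, endothelial cells or T cells of either library, 1 was at 0 in sham fibroblasts and 1 in TAC B cells. The part of monocyte RNA in the Ass1 differences was not tested.

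In TAC macrophages Ass1 was spread over many cells but unevenly over clusters. Clusters 2 and 3 (804 and 332 TAC cells, described below) held 703 and 424 of the 1334 TAC molecules. A UMI was present in 519 of 2701 TAC cells (19.2%), with 102 cells holding 50% of the molecules, against 45 of 2686 sham cells (1.68%). After each cell was thinned to 1000 UMIs the shares were 1.93% (1.44 to 2.52) and 0.298% (0.129 to 0.586). The same shares were 7.99% in TAC monocytes and 6.88% in TAC fibroblasts, beside 0.516% in TAC neutrophils, the class with the lowest share (unthinned 62.8%, 44.8% and 4.91%, at median depths of 17246, 15140 and 7011 UMIs). Of the 519 TAC macrophages with Ass1, 233 (44.9%) also held Acod1, against 27.1% of all TAC macrophages. Tnf, a cytokine of inflammatory macrophages, was present in 85.4% of Ass1-positive and 70.4% of Ass1-negative cells, and Cxcl9, an interferon-gamma-induced chemokine, in 36.4% and 24.3%. The positive cells were deeper (medians 18943 and 13274 UMIs), and the part of depth in these shares was not tested.

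Slc7a2, the cationic amino acid transporter of the list, was called in no class. Its highest level was in fibroblasts, 14.1 CPM in sham (30 UMIs, 9.54 to 20.2) and 20.1 CPM in TAC (87 UMIs, 16.1 to 24.8), a ratio of 1.42 (0.929 to 2.23) that missed the rule. Macrophages had 1.42 and 1.02 CPM (37 and 44 UMIs), also between the limits. In endothelial cells 10 sham UMIs (8.82 CPM) stood beside 0 of 3655024 TAC UMIs, at least 10.7-fold lower with 3 counts taken as the TAC floor, but with under 20 UMIs the pair was not judged. Of those 10 UMIs, 9 lay in the 23 sham cells with a Vwf or Npr3 UMI, markers of large-vessel and endocardial endothelium. The overlapping Gm26584 had 0 UMIs in fibroblasts, endothelial cells and macrophages of both libraries.

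Beyond these members, transport and recycling genes of macrophages are set beside the 14.9% of all genes that were higher and 22.9% that were lower there. Of 5 other arginine transport genes 1 was higher and 0 lower (median log2 ratio 0.22, against -0.10 over all genes): Slc7a5, a light chain of a large neutral amino acid carrier, with 1.72 CPM in sham and 3.26 CPM in TAC. Of 4 judged recycling and creatine genes 1 was higher (median -0.04, against -0.10). It was Gatm, the first creatine enzyme, at 103.3 and 172.9 CPM, while Asl, which completes the citrulline cycle after Ass1, was at 23.8 and 22.7 CPM. In endothelial cells 3 of 4 transport genes were lower and 1 higher, beside 15% and 16.7% of all genes (median -0.88, against 0.02). Slc7a1, the constitutive arginine carrier, was at 30.9 and 16.4 CPM and Slc3a2, the shared heavy chain, at 181.7 and 275.0 CPM. Asl was also lower there, at 17.6 and 10.7 CPM, on 20 and 39 UMIs with an interval of the ratio from 0.344 to 1.10.

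**Figure D2:**
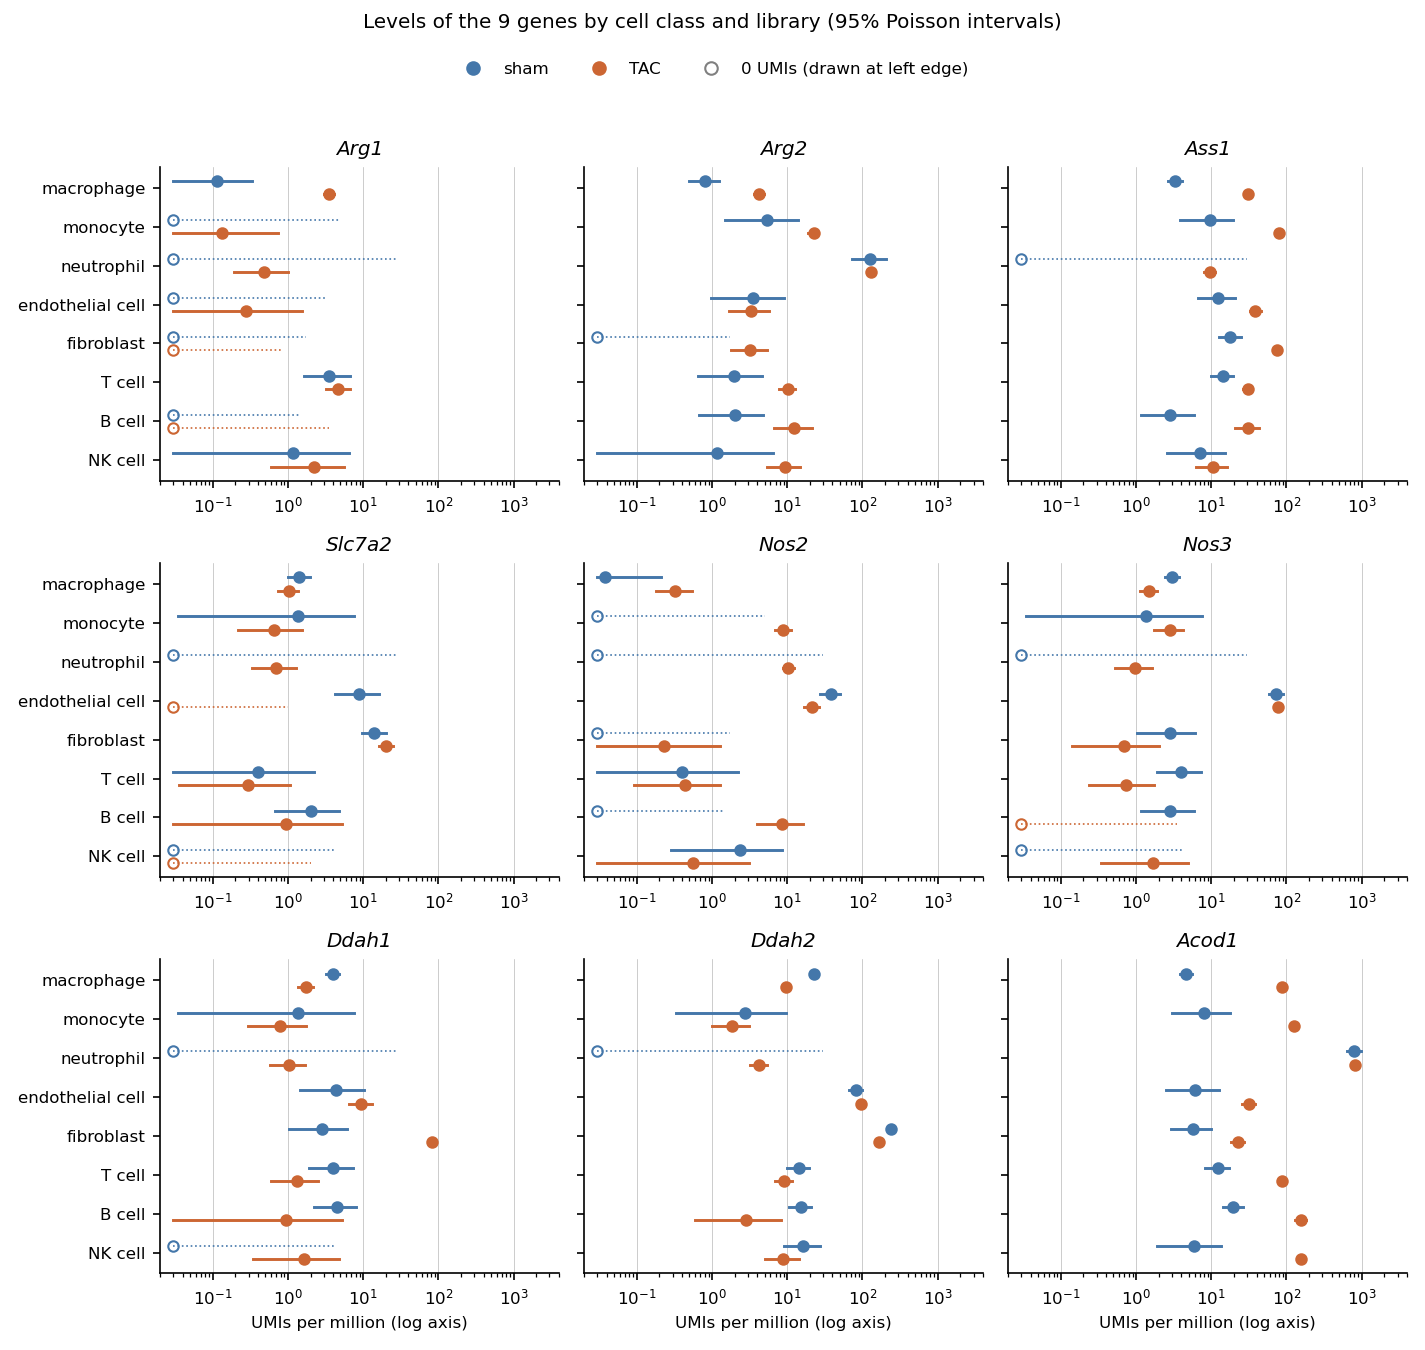
Level (CPM, log axis) of each gene in each cell class, sham beside TAC, with exact 95% Poisson intervals; open points with a dotted upper limit have 0 UMIs. Among the classes plotted, Acod1 and Arg2 are highest in neutrophils, Nos3 in endothelial cells and Ddah2 in fibroblasts, in both libraries.

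Arg1, the cytosolic arginase often used to mark repair-type macrophages, was rare in every class. Sham macrophages held 3 UMIs in 3 cells (0.115 CPM) and TAC macrophages 152 UMIs in 43 cells (3.54 CPM), a ratio of 30.8 (10.3 to 151.2) against 3 molecules. The TAC molecules were concentrated: the 3 highest cells held 30, 27 and 9 of them (43.4%), and 5 cells held 50%. After thinning, 5 of 2700 TAC cells (0.185%) and 0 of 2685 sham cells, which allows up to 0.112%, held a UMI.

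Cluster 5, which stayed unnamed and is led by Mmp12, Fn1, Ear2 and Ccr2, moved the other way, with 39 Arg1 UMIs in 273 sham cells and 0 in 85 TAC cells. Of the 39 molecules 30 lay in 1 cell. When cluster 5 was counted with the macrophages, a choice made after seeing the data, the macrophage log2 ratio was 1.28 in place of 4.73, and with at least 500 genes required per cell it was 1.17. Under both settings Arg1 stayed higher in TAC, by a smaller ratio; the cells were clustered anew for the second, and what moved its value was not tested.

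The 43 Arg1-positive TAC macrophages were compared with the other 2658 on genes picked after the data were seen. Gpnmb, a lipid-associated lysosomal glycoprotein, was present in 39.5% against 5.34%, Il7r in 41.9% against 8.47%, Vegfa, the vascular growth factor, in 39.5% against 7.19%, and Spp1, which codes for osteopontin, in 53.5% against 21.4%. Their median depth was 26369 UMIs against 14090, and its part in these shares was not tested. Per cluster, Arg1 stood at 6.77 CPM in cluster 2 (led by Slamf7, Tnf and Ccl4), 4.98 in cluster 3 (cycling cells with Top2a and Mki67), 11.2 in cluster 6 (Saa3 and Cxcl13, 19 UMIs in 7 cells) and 0.283 in cluster 14 (Gbp2b, Ccl8 and Ccl12).

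In the T cell class Arg1 was at 3.57 CPM in sham (9 UMIs in 7 cells) and 4.71 CPM in TAC (32 UMIs in 9 cells, 16 of them in 1 cell), a ratio of 1.32 (0.616 to 3.14). The other genes of these few cells were looked at after their values were seen. Of the 7 sham cells, 6 held Gata3, 5 held Il1rl1 and 7 held Rora, genes that mark group 2 innate lymphoid cells, and 1 held Cd3e, a part of the T cell receptor complex, which 54.7% of the other sham cells in the class held. Of the 9 TAC cells 3 held Gata3 and 7 held Cd3e. No Arg1 UMI was counted in fibroblasts or B cells of either library.

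Arg2, the mitochondrial arginase, was a neutrophil gene in these libraries. TAC neutrophils stood at 128.8 CPM (1863 UMIs, 123 to 134.8), with a UMI in 805 of 1162 cells (69.3%, and 19.6% after thinning), and the 21 sham neutrophils at 128 CPM (16 UMIs, 73.2 to 207.9). Those neutrophils held 77.3% of all Arg2 molecules of kept TAC cells. Among TAC neutrophils the level was 321.7 CPM in cluster 7 (led by Cxcr2, Hdc and Il1r2, genes of mature neutrophils), 80.4 in cluster 22 (Ngp, Camp and Ltf, granule genes of immature neutrophils) and 70.9 in cluster 21. Vti1b, which overlaps Arg2 on the other strand, was at 48.2 CPM in TAC neutrophils and 61.9 CPM in TAC macrophages, and did not share this order.

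Outside neutrophils Arg2 was higher in TAC in macrophages, from 0.803 CPM (21 UMIs) to 4.19 CPM (180 UMIs), 5.22-fold (3.31 to 8.63). Monocytes had 5.42 CPM in sham (4 UMIs) and 22.4 CPM in TAC (169 UMIs), 4.14-fold (1.59 to 15.4), and T cells 1.98 and 10.1 CPM, 5.12-fold (2.09 to 16.3). These classes also held more neutrophil RNA in TAC: the summed level of 15 neutrophil markers was 182 CPM in sham and 1490 in TAC macrophages, 222 and 16329 in monocytes, and 1326 and 5899 in T cells, with 13 of 15 markers called higher in macrophages and T cells and 13 of 13 judged in monocytes. In sham 4 of the 15 were at 0 in monocytes and 1 in macrophages and in T cells, and none was at 0 in TAC. Per 1000 UMIs of S100a8 and S100a9, abundant neutrophil genes, TAC Arg2 was at 1.54 in monocytes, 2.01 in T cells and 3.36 in macrophages. TAC neutrophils as a whole were at 1.02 (0.975 to 1.07), with 1.84 in cluster 7, 2.07 in cluster 21 and 0.291 in cluster 22. The part of neutrophil RNA in these differences was not tested. With each library clustered alone the macrophage log2 ratio of Arg2 was 3.80, and with a mitochondrial limit of 25% it was 3.25, in place of 2.35.

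Downstream of arginase, counts of polyamine genes differed between classes. In macrophages 2 of 13 judged ornithine and polyamine genes were higher and 0 lower (median 0.31, against -0.10). Over all genes the shares there were 14.9% and 22.9%. The higher genes were Smox, spermine oxidase, at 18.6 and 33.1 CPM, and Srm, spermidine synthase, at 12.2 and 19.8 CPM. In fibroblasts 0 of 14 were higher and 1 lower, beside 10.2% and 19% of all genes (median -0.14, against -0.09). In NK cells 5 of 12 were higher and 0 lower, beside 25.8% and 19.7% (median 0.41, against 0.08). In monocytes 1 of 13 was higher and 3 lower, beside 21.7% and 17.9% (median -0.14, against 0.01). Among the lower was Odc1, the rate-limiting enzyme of polyamine synthesis, at 140.8 CPM in sham and 76.2 in TAC.

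Nos3, the endothelial nitric oxide synthase, did not differ beyond counting error in endothelial cells. It stood at 73.2 CPM in sham (83 UMIs, 58.3 to 90.7) and 77.2 CPM in TAC (282 UMIs, 68.4 to 86.7), a ratio of 1.05 whose interval runs from 0.823 to 1.36. A UMI was present in 44.3% of sham and 41.7% of TAC endothelial cells, and in 8.85% and 8.62% after thinning, against 0.224% and 0.0741% of macrophages. The 25 mural-like cells of TAC overlapped them, at 73.5 CPM (30 UMIs in 9 cells, 49.6 to 104.9). The overlapping gene Atg9b was at 2.65 and 3.01 CPM in endothelial cells. The genes with the most similar pattern over 14 class-by-library sums were Kdr (Pearson r 0.95), the main receptor for vascular endothelial growth factor, 8430408G22Rik (0.95) and Tie1 (0.95), an endothelial receptor, out of 11259 genes; the sums share libraries and depth.

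In macrophages Nos3 was low and lower in TAC, at 3.02 CPM (79 UMIs in 75 cells) and 1.47 CPM (63 UMIs in 60 cells), 2.06-fold lower (1.46 to 2.92). The summed level of 12 endothelial markers there was 64.3 and 65.1 CPM, with 3 of 11 judged markers higher and 2 lower. In monocytes 1 sham and 21 TAC UMIs gave a ratio of 2.06 (0.331 to 85.1), which met the rule on size with an interval that includes 1. At a finer clustering (Leiden resolution 2) the log2 value of Nos3 in monocytes was -0.16, so this call has no stable direction. The other compared classes had fewer than 20 Nos3 UMIs.

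Nos2, the inducible nitric oxide synthase that classically marks inflammatory macrophages, was nearly missing from macrophages, with 1 UMI in 2686 sham cells and 14 UMIs in 9 of 2701 TAC cells (0.0382 and 0.326 CPM). Its molecules lay elsewhere: of 49 sham UMIs in kept cells 43 (87.8%) were in endothelial cells, and of 327 TAC UMIs 150 (45.9%) were in neutrophils, 78 (23.9%) in endothelial cells and 67 (20.5%) in monocytes. In endothelial cells it was 37.9 CPM in sham (43 UMIs in 30 cells) and 21.3 CPM in TAC (78 UMIs in 54 cells), 1.78-fold lower (1.19 to 2.61). Every one of these 30 and 54 cells also held Gpihbp1, a capillary endothelial gene, which 80.7% and 92.9% of the other endothelial cells held. Median depths were 9869 against 8300 UMIs in sham and 9084 against 6103 in TAC, and their part was not tested. By contrast Nos2 was low in endothelial cells with a Vwf or Npr3 UMI, at 4.46 CPM in sham and 7.47 in TAC, against 46.2 and 25.2 CPM in those without. The shares after thinning were 4.43% in sham and 2.71% in TAC, beside 0 of 211 sham and 0 of 247 TAC fibroblasts, which allows up to 1.42% and 1.21%.

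In monocytes Nos2 moved in the other direction, with 0 UMIs in 65 sham cells and 67 UMIs in 20 of 363 TAC cells (8.89 CPM), at least 2.19-fold higher with 3 counts taken as the sham floor. The neutrophil marker sum of this class, 222 CPM in sham and 16329 in TAC, moved the same way, and its part in the Nos2 values was not tested. Without cells rich in C1q UMIs 0 UMIs in 36 sham monocytes stood beside 30 in 250 TAC monocytes, and the interval of the ratio, with a lower bound of 0.596, includes 1. All 67 molecules lay among the 272 TAC monocytes with more Ly6c2 and Chil3 than Ace, Treml4 and Adgre4 UMIs, that is cells with classical rather than patrolling markers, and none among the other 91. Of the 20 cells 15 also held Ass1. These cells were deep (median 32610 UMIs against 16790), and no TAC monocyte held Nos2 after thinning (0 of 363, which allows up to 0.826%). In TAC neutrophils Nos2 was a gene of the immature cluster 22, at 37.2 CPM (135 UMIs in 44 of 136 cells), against 2.81 CPM in cluster 7 and 0.787 in cluster 21. Of the 56 Nos2-positive TAC neutrophils 49 held Ngp, a granule protein gene, (87.5%, against 25.8% of the rest). Their median depth was 24151 UMIs against 6510, and its part in these shares was not tested.

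The partners and the cofactor path of nitric oxide synthase did not share a direction. In endothelial cells 2 of 7 judged partner genes were higher and 2 lower, beside 16.7% and 15% of all genes (median -0.14, against 0.02). Nostrin, a trafficking partner of Nos3, was at 68.8 and 115.2 CPM (1.68-fold), Nosip, another Nos3-interacting gene, at 28.2 and 47.3 CPM, and Hsp90aa1, a chaperone of Nos3, at 1409 and 769.6 CPM. Hsp90aa1, a heat-shock gene, was lower in macrophages, fibroblasts, T cells and monocytes as well, for example 2246 and 674.6 CPM in macrophages. Gch1, the first enzyme of the cofactor tetrahydrobiopterin, was higher in fibroblasts at 16.5 and 35.8 CPM (2.17-fold, 1.496 to 3.23), while its ratios of 1.36 in macrophages and 1.16 in endothelial cells fell between the limits.

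Methylarginine clearance was split between its 2 genes and between cell types. Ddah2 was highest in fibroblasts, at 236.6 CPM in sham (502 UMIs, 216.4 to 258.3) and 164.5 CPM in TAC (712 UMIs, 152.6 to 177.1). The ratio of 0.695 (0.619 to 0.781) is 1.44-fold lower, short of the rule, and without cells rich in C1q UMIs it was 1.53-fold lower and past it. The gene was broadly present there, in 81.1% of sham and 79.0% of TAC fibroblasts and in 15.6% and 18.6% after thinning, so the thinned share does not follow the CPM and no order is read from it. Endothelial cells came next with 81.1 and 96.3 CPM, a ratio of 1.19 (0.941 to 1.51).

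In macrophages Ddah2 was lower in TAC, at 23.0 CPM in sham (601 UMIs in 482 cells) and 9.59 CPM in TAC (412 UMIs in 319 cells), 2.40-fold lower (2.11 to 2.72). Its molecules were spread thinly, with at most 6 in 1 cell. The thinned sums gave a log2 ratio of -0.56 in place of -1.26, which no longer met the rule. In T cells it was 14.3 and 8.97 CPM (1.59-fold lower, 1.02 to 2.44), in NK cells 16.4 and 8.84 CPM (1.86-fold lower, on 14 and 16 UMIs) and in B cells 15.2 and 2.86 CPM (5.29-fold lower, on 37 and 3 UMIs). These lymphocyte levels stand beside macrophage marker sums of 18849 and 15191 CPM in T cells, 18269 and 10887 in NK cells and 22015 and 16915 in B cells, and the part of macrophage RNA in them was not tested.

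Ddah1 was concentrated in fibroblasts in TAC. They went from 2.83 CPM (6 UMIs in 5 of 212 cells, 1.04 to 6.16) to 82.7 CPM (358 UMIs in 57 of 248 cells, 74.4 to 91.8), and held 70.7% of the Ddah1 molecules of kept TAC cells. A single cell held 109 of the 358 molecules, and without it the TAC level was 58.2 CPM. The thinned shares were 0.474% in sham and 5.26% in TAC (2.83 to 8.83), beside 0.185% of TAC macrophages.

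All 358 TAC molecules of Ddah1 lay in the 157 fibroblasts with a UMI of Postn or Cthrc1, genes of activated matrix-producing fibroblasts, and none in the other 91. Sham fibroblasts had 4 UMIs in 22 such cells (15.02 CPM, 4.09 to 38.5) and 2 UMIs in the other 190 (1.08 CPM). All 57 Ddah1-positive TAC cells held Postn, against 51.8% of the negative cells, 43.9% held Cthrc1 against 6.81%, and 50.9% held Acta2, the smooth muscle actin of myofibroblasts, against 13.1%. Their median depth was 23972 UMIs against 13512, and its part in these shares was not tested. Ass1 shared the split in TAC, at 93.2 CPM in cells with Postn or Cthrc1 and 18.7 CPM in those without. In sham it was at 52.6 and 12.9 CPM. The sham value of 52.6 CPM rests on 14 UMIs in 3 cells, with 9 of those UMIs in 1 cell. Of the 57 Ddah1-positive TAC cells 43 (75.4%) held Ass1, against 44.8% of all. For Ddah2 the same TAC values were 164.6 and 164.1 CPM, and for Slc7a2 they were 19.96 and 20.5 CPM. The split was made after the values were seen. Cthrc1 itself was the gene with the most similar pattern to Ddah1 over the 14 sums (r 0.86), followed by Golgb1 and Layn.

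**Figure D3:**
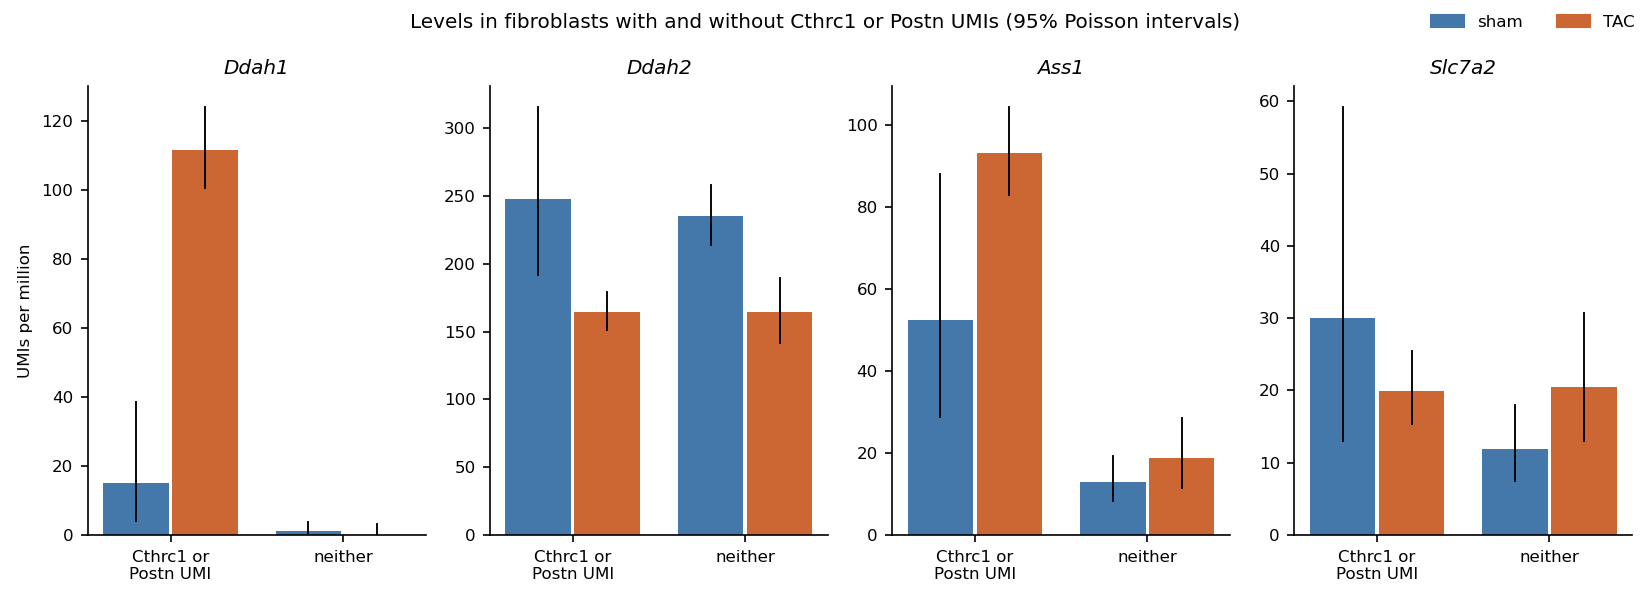
Levels (CPM with exact 95% intervals) in fibroblasts with and without a UMI of Postn or Cthrc1, sham and TAC. Ddah1 stands at 111.6 CPM in TAC cells with those genes and at 0 in TAC cells without, whereas Ddah2 is at 164.6 and 164.1 CPM.

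In macrophages Ddah1 was lower in TAC, at 3.94 CPM (103 UMIs in 89 cells) and 1.72 CPM (74 UMIs in 65 cells), 2.29-fold lower (1.68 to 3.13), while fibroblast markers summed to 12.3 and 30.3 CPM. In endothelial cells 5 and 34 UMIs gave a ratio of 2.11 (0.821 to 6.91) that includes 1, and 13 of the 34 molecules lay in 1 cell. Of the methyltransferase and clearance genes judged, 0 of 5 were higher and 3 lower in endothelial cells (median -0.62, against 0.02). Over all genes the shares there were 16.7% and 15%. In macrophages 1 of 5 was higher and 1 lower, beside 14.9% and 22.9% of all genes (median -0.19, against -0.10). These were Prmt6 at 3.86 and 5.82 CPM and Prmt2 at 19.99 and 13.3 CPM, both arginine methyltransferases.

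Acod1, the itaconate enzyme, had the most molecules of the set, 1658 in sham and 18340 in TAC kept cells. TAC neutrophils held 64.5% of the TAC molecules and TAC macrophages 20.7%. Neutrophils stood at 818.1 CPM (803.4 to 832.9), with a UMI in 1041 of 1162 cells (89.6%, and 52.6% after thinning), and the 21 sham neutrophils at 792.1 CPM (99 UMIs, 643.8 to 964.3), which overlaps. Cluster 7 was at 2134 CPM (2083 to 2185), cluster 21 at 549.3 and cluster 22 at 222.8, so mature neutrophils held more than immature ones. In sham the largest share, 56.3%, lay in cluster 9, an unnamed cluster of 155 sham cells led by Slc7a11, Csf3r and Mmp9, at 468.6 CPM. Those sham cells also held C1q genes, at a median of 139.8 per 10000 UMIs. Of 1162 TAC neutrophils 737 held both Acod1 and Arg2.

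Macrophages went from 4.66 CPM of Acod1 in sham (122 UMIs in 46 cells, 3.87 to 5.57) to 88.2 CPM in TAC (3789 UMIs in 732 cells, 85.4 to 91.0). The ratio was 18.9-fold (15.8 to 22.8), and the thinned shares were 0.298% (0.129 to 0.586) and 4.85% (4.07 to 5.73), beside 0.474% of sham and 0.810% of TAC fibroblasts. Of the sham molecules 25 lay in 1 cell, whereas 88 cells held 50% of the TAC molecules. TAC macrophages with Arg2 held Acod1 in 68.5% of cells, against 27.1% of all, at median depths of 25138 and 14181 UMIs. The part of depth in these shares was not tested.

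Different clusters made up most of the macrophages in the libraries: clusters 0 (Gdf15 and Hbegf), 1 (Lyve1, Folr2 and Retnla, genes of resident macrophages) and 4 (Hspa1a and Dnajb1, heat-shock genes) in sham, and clusters 2 and 14 in TAC. In TAC, Acod1 was at 120.4 CPM in cluster 2, 156 in cluster 3, 50.2 in cluster 6 and 47.4 in cluster 14. The clusters with enough cells in both libraries, examined after the main values were seen, gave smaller ratios than the class as a whole. In cluster 3 (156 and 332 cells) Acod1 stood at 18.04 and 156 CPM (8.65-fold, 6.45 to 11.9), in cluster 0 at 5.50 and 15.9 CPM (2.90-fold, 1.44 to 5.50) and in cluster 4 at 2.01 and 12.9 CPM (6.42-fold, 2.63 to 14.9). In cluster 1 it was 6 and 4 UMIs. Single cells weigh on these ratios. In cluster 3 1 cell held 25 of the 46 sham UMIs. In TAC 1 cell held 8 of the 14 UMIs of cluster 0, and 1 cell held 8 of the 10 UMIs of cluster 4. The cluster ratios without those cells were not computed.

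The other members behaved unevenly within these clusters. Ass1 in cluster 3 was at 13.3 and 47.97 CPM (3.60-fold, 2.54 to 5.27), but in clusters 0, 1 and 4 it had at most 1 TAC UMI each, at 12, 7 and 8 sham UMIs. In the 28 sham cells of cluster 2 Ass1 stood at 69.9 CPM (22 UMIs, 43.8 to 105.9), which overlaps 58.0 CPM in the 804 TAC cells of that cluster. Ddah2 in cluster 3 was 2.67-fold lower in TAC, at 43.1 and 16.2 CPM, but in cluster 0 it was at 19.4 and 21.6 CPM and in cluster 1 at 23.4 and 21.3 CPM, with intervals of the ratio that include 1. In TAC it stood at 4.37 CPM in cluster 2 (3.27 to 5.72) and 4.14 CPM in cluster 6 (1.66 to 8.52), which overlap. The class ratios thus combine the levels within clusters with the numbers of cells in them, and these cannot be told apart with 1 library per group.

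**Figure D4:**
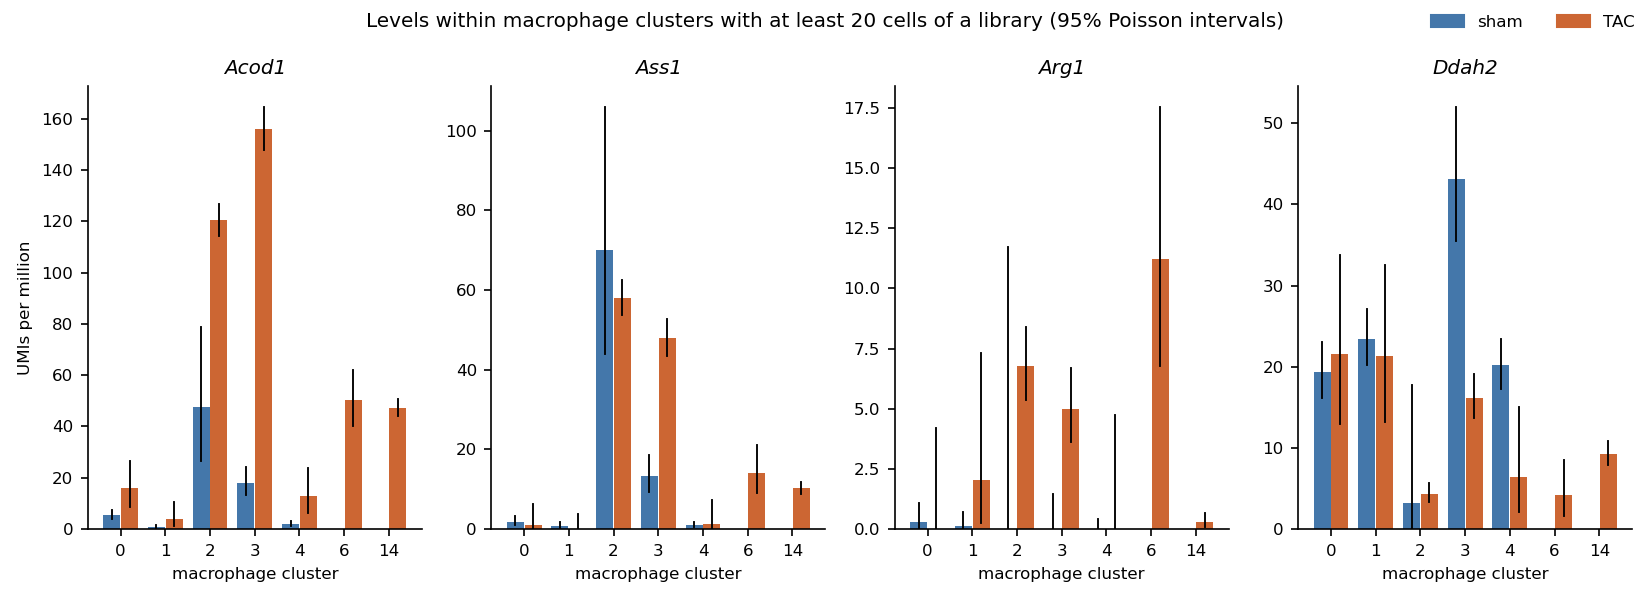
Levels (CPM with exact 95% intervals) of Acod1, Ass1, Arg1 and Ddah2 in the macrophage clusters, sham in blue and TAC in orange; a library with fewer than 20 cells in a cluster has no bar. Acod1 in TAC is highest in clusters 3 and 2 (156 and 120.4 CPM), and Ddah2 in cluster 1 is at 23.4 CPM in sham and 21.3 in TAC.

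Acod1 was also higher in the other 6 compared classes. Monocytes went from 8.12 to 127 CPM (6 and 957 UMIs, 15.6-fold, 7.15 to 42.7), NK cells from 5.86 to 157.9 CPM (5 and 286 UMIs, 26.9-fold), B cells from 19.7 to 153.6 CPM (7.81-fold, 5.63 to 11.02) and T cells from 12.3 to 87.8 CPM (7.15-fold, 4.98 to 10.6). Endothelial cells had 6.17 and 31.5 CPM (5.10-fold, 2.40 to 12.96) and fibroblasts 5.66 and 22.4 CPM (3.96-fold, 2.17 to 7.93). Few cells carried these molecules: 21 of 77 TAC NK cells, with up to 45 in 1 cell, 90 of 298 T cells, with up to 66, and 25 of 248 fibroblasts, with up to 22. The NK log2 ratio was 2.55 with a mitochondrial limit of 25% and 8.04 with each library clustered alone, and the T cell log2 ratio was 4.41 after thinning in place of 2.82. Without cells rich in C1q UMIs few lymphocytes were left. Acod1 was then 1.66-fold higher (0.915 to 3.31) in T cells (20 sham and 96 TAC cells), at a ratio of 0.778 (0.3804 to 1.64) and not called in B cells (6 and 16 cells), and 5.67-fold higher (2.41 to 17.6) in monocytes (36 and 250 cells). The 3 sham NK cells left held no Acod1 UMI.

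Neutrophil genes were present in the same classes. The neutrophil marker sum was 1215 CPM in sham and 11453 in TAC B cells, 1821 and 4763 in NK cells, 3403 and 2804 in endothelial cells, and 2211 and 451 in fibroblasts, so it was higher in TAC in T, B and NK cells and monocytes and lower in endothelial cells and fibroblasts. Per 1000 UMIs of S100a8 and S100a9, TAC Acod1 was at 12.2 in neutrophil cluster 7 and 16.0 in cluster 21, and at 8.72 in monocytes, 13.01 in endothelial cells, 15.8 in B cells and 17.4 in T cells. It was 38.1 in NK cells, 68.5 in fibroblasts, 31.5 in macrophage cluster 3, 133 in cluster 6, 161.6 in cluster 14 and 462.6 in cluster 2. The macrophage clusters with few TAC Acod1 UMIs had 41.8 (cluster 0, 22.6 to 71.1), 39.1 (cluster 4, 18.5 to 73.02) and 15.09 (cluster 1, 4.08 to 39.1). Neutrophil cluster 22 was at 0.806, and TAC neutrophils as a whole were at 6.48 (6.36 to 6.60). S100a8 and S100a9 together stood at 34292 CPM in TAC cells of cluster 21, against 174875 in cluster 7 and 276501 in cluster 22. Of all TAC neutrophils 37.1% were rich in C1q UMIs (at least 50 per 10000). The part of macrophage RNA in cluster 21 was not tested. The monocyte, endothelial, B and T cell values, from 8.72 to 17.4, thus lie near those of neutrophil clusters 7 and 21. They also lie above that of neutrophils as a whole. The NK cell, fibroblast and macrophage cluster values lie above those of neutrophil clusters 7 and 21, except that of macrophage cluster 1, which rests on 4 UMIs. This ratio was computed after the levels were seen, and the part of neutrophil or macrophage RNA in the lymphocyte levels was not tested.

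**Figure D5:**
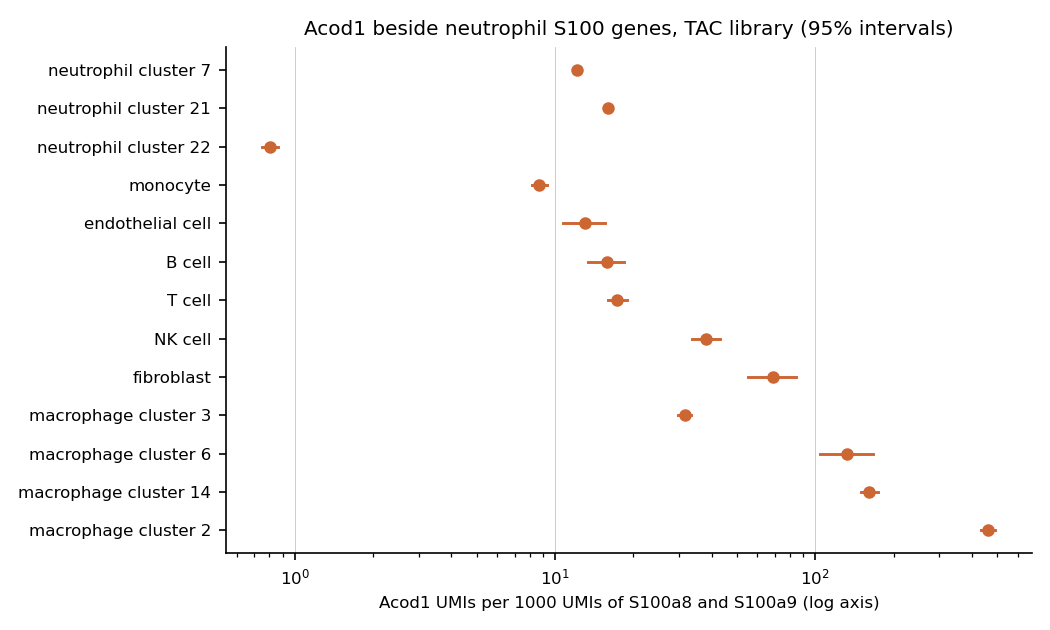
Acod1 UMIs per 1000 UMIs of S100a8 and S100a9 in the TAC library, with 95% intervals, on a log axis; macrophage clusters 0, 1 and 4, with at most 14 Acod1 UMIs, are not drawn. B and T cells (15.8 and 17.4) lie near neutrophil cluster 21 (16.0) and above TAC neutrophils as a whole (6.48, not drawn), and macrophage cluster 2 lies at 462.6. Cluster 21 held less of the 2 S100 genes (34292 CPM) than neutrophil cluster 7 (174875 CPM).

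Genes that supply or meet itaconate moved less than Acod1 itself. In macrophages 1 of 13 judged genes of aconitate supply and itaconate use was higher and 0 lower (median 0.17, against -0.10). Over all genes the shares there were 14.9% and 22.9%. The higher gene was Sdhb, a subunit of succinate dehydrogenase, the enzyme that itaconate inhibits, at 88.3 and 136.8 CPM. In monocytes 6 of 13 were higher and 0 lower, beside 21.7% and 17.9% of all genes (median 0.37, against 0.01). Of 7 stress targets linked to itaconate, 1 was higher and 2 lower in macrophages, beside the same 14.9% and 22.9% (median -0.07, against -0.10). These were Slc7a11, the cystine carrier, at 9.29 and 25.4 CPM (2.73-fold), Hmox1, haem oxygenase, at 728.3 and 466.8 CPM, and Atf3, a stress transcription factor, at 2184 and 1315 CPM. Fibroblasts had 2 of 7 higher and 1 lower, beside 10.2% and 19% of all genes (median -0.14, against -0.09). The higher were Txnrd1 (46.2 and 86.2 CPM) and Gclm (46.2 and 75.3 CPM), both antioxidant enzymes. The lower was Nfkbiz (391.2 and 234.8 CPM), a nuclear regulator of inflammatory genes. In endothelial cells 3 of 7 were lower and 1 higher, beside 15% and 16.7% of all genes. T cells had the same counts, beside 18.6% and 20.5%. NK cells had 3 lower and 2 higher, beside 19.7% and 25.8%, and B cells 4 and 0, beside 26% and 14.4%. Monocytes had 2 lower and 3 higher, beside 17.9% and 21.7%.

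Among genes of the signals known to induce Nos2 and Acod1, Irf1, a transcription factor of interferon signalling, was 4.32-fold higher in TAC in endothelial cells. Ifng, the cytokine interferon gamma, was at 35.7 and 246 CPM in T cells (6.90-fold) and 138 and 424 CPM in NK cells. In macrophages 7 of the 18 judged inducer genes were higher and 4 lower, beside 14.9% and 22.9% of all genes. Klf4, a transcription factor, was at 1561 and 405.1 CPM. Acod1's most similar genes over the 14 sums were Gm3839 (r 0.95), Gbp2b (0.94), an interferon-induced GTPase, and Slc4a8 (0.93), and those of Ass1 were Slco3a1 (0.88), Psmc6 (0.86) and Gbp2 (0.86), another interferon-induced GTPase.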

How the data were processed

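Single-cell RNA counts of sorted heart CD45+ cells were deposited by the authors as 1 matrix of UMI counts per library (sham and TAC), not normalized; per the submitters' processing notes they were made with Cell Ranger 3.0 on mm10. No columns were left unmapped. The genes and lists were chosen with earlier results of these data known. Barcodes passed with a minimum of 300 genes and a maximum of 10% mitochondrial UMIs. With scanpy 1.11.5 (Python 3.11.15, numpy 2.4.6), 2000 variable genes without the 9 members, 30 principal components, 15 neighbours and Leiden resolution 1 gave the clusters. A cluster was named when at least 3 of its 10 leading genes were markers of 1 class, or when at least 60% of a class's markers were each found in at least 50% of its cells and no other class had more markers among the leading genes, a rule set after the data were seen. Doublets were not removed and no doublet caller was run.

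UMIs were summed per class and library and given as CPM (Poisson intervals; conditional binomial intervals for ratios; Clopper-Pearson for shares; scipy 1.17.1). Counting covers mRNA ends, so gene length was not used. A class was compared where both libraries held 50 or more of its cells. Shares of cells were thinned to 1000 UMIs. The ratio code was tested on simulated counts. Named genes are the members, up to 2 highest and 2 lowest of each fixed pathway list per class, and the 3 genes of most similar pattern. There are no replicates, so no p-value was computed. Alternatives covered scaling, filters, clustering, depth and cell weight. Free RNA and doublets were not corrected for. The nearest alternatives left out C1q-rich cells or the deepest cells, and these do not show which cells hold free RNA or are doublets. The values of 1 gene of the inducer list are not reported here.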

Additional observations from a re-analysis of the deposited data

Results flagged for a closer look

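Both directions were seen for 2 genes under the same contrast. The log2 TAC to sham value of Nos2 was 3.73 in monocytes (0 and 67 UMIs, 0.5 UMI added to each) and -0.84 in endothelial cells, and that of Ddah1 was 4.76 in fibroblasts and -1.19 in macrophages. With 1 library per group the difference between the classes was not tested.

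The barcodes left out by the cell filter (7772 sham and 2374 TAC) entered no main comparison, and only some returned under the mitochondrial limit of 25%. The left-out barcodes also held members at higher levels in TAC than in sham: Acod1 at 262.6 CPM against 29.8, Arg2 at 26.0 CPM against 4.97, and Ass1 at 11.4 CPM against 2.72. Other members were lower in TAC there: Ddah2 at 7.88 CPM against 24.95 (3.16-fold lower, 2.44 to 4.18), Nos2 at 1.31 CPM against 3.15 (10 and 116 UMIs, 2.40-fold lower, 1.26 to 5.13) and Nos3 at 4.47 CPM against 7.15 (1.60-fold lower, 1.12 to 2.36). Slc7a2 was 1.53-fold lower on 5 and 37 UMIs, with an interval of the ratio that includes 1.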

How the results depend on the processing

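No paired analysis was possible because each group is 1 library and no test was made. Of the 28 called pairs of a gene and a class, 21 kept their call under every alternative that gave a value, at most 14 per pair. Where the alternative still judged them, 24 did. Dropping the UMI minimum could not remove a call. Rescaling by medians of ratios or without mitochondrial genes changed no call, though it moved the median of all genes in B cells by 0.11 (log2). Nos3 in monocytes reversed at Leiden resolution 2 (-0.16), and was lost with each library clustered alone or without its highest cell. Ddah1 in endothelial cells was lost as a mean over cells and without the top 5% of cells by UMIs, and Ddah2 in T cells without that top 5%. With at least 50 UMIs required, B cells kept 1 higher and 0 lower and NK cells 0 lower. Thinning every cell to 1000 UMIs left 22 of the 28 pairs under 20 UMIs, because fewer molecules remain: higher and lower calls were 2 and 0 in macrophages, 1 and 0 in endothelial cells, 0 and 1 in fibroblasts, 1 and 0 in T cells, 0 and 0 in B and NK cells, and 2 higher in monocytes. With no UMI minimum, 2 were lower in endothelial cells, 5 higher and 1 lower in fibroblasts, 3 lower in T cells, 2 lower in monocytes, 4 higher and 4 lower in B cells, and 5 higher and 2 lower in NK cells. Fibroblasts had 1 lower (Ddah2) without C1q-rich cells and as a mean over cells. T cells had 2 lower at a mitochondrial limit of 25% and with each library clustered alone, and 0 without the top 5%. NK cells had 3 higher at the 25% limit, and 2 with each library clustered alone, without the top 5%, as a mean over cells, or without the highest cell of each gene (chosen after seeing the data). Monocytes had 1 lower with at least 500 genes per cell. The cause of these changes was not tested. At a mitochondrial limit of 5% no class kept 50 sham cells (macrophages 48), so it is not counted here. Without C1q-rich cells T, B and NK cells and monocytes fell below 50 cells in a library and are not counted either, but their sums moved the calls: Acod1 was not called in B cells (ratio 0.778, against 7.81), and was 1.66-fold higher in T cells (against 7.15). Depth limits Arg1, Nos2 and Slc7a2 most: 28 of 63 pairs had under 20 UMIs.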

Other observations

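Several clusters that stayed unnamed held members at levels of their own. Cluster 5 (273 sham and 85 TAC cells, led by Mmp12, Fn1, Ear2 and Ccr2) held Ass1 at 23.7 CPM in sham (99 UMIs, 19.3 to 28.9) and at 57.6 CPM in TAC (106 UMIs, 47.2 to 69.7), 2.43-fold higher. Its Acod1 was at 19.2 and 20.7 CPM, a ratio of 1.08 whose interval (0.713 to 1.61) includes 1. Cluster 18 (129 and 69 cells, led by Gpnmb, Lyz1 and Hmga2) held 41.9 CPM of Acod1 in sham and 62.9 CPM in TAC, in 45.0% and 53.6% of cells, with 89 UMIs of S100a8 and S100a9 in sham beside 215 of Acod1.

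Cluster 9 (155 sham and 12 TAC cells, led by Slc7a11, Csf3r and Mmp9) held 134 of the 266 sham Arg2 molecules (67.2 CPM) as well as 934 of the 1658 sham Acod1 molecules. Its cells with an Acod1 UMI were 138 of 155 (89.0%), close in share to TAC neutrophils (89.6%). Only 2 of its leading genes were neutrophil markers, so it was not counted with them. The median of the C1q genes in its sham cells was 139.8 per 10000 UMIs, beside 168.7 in sham macrophages and 4.10 in sham neutrophils. The part of macrophage RNA in cluster 9 was not tested.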
